A study of Mus musculus with 36 samples.

Results

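The H2 genes of the mouse major histocompatibility complex were examined for DNA methylation of CpGs in liver, by whole-genome bisulfite sequencing of 24 mice. Members were all genes on chromosome 17 of the mm9 annotation with symbols that start with H2-, and the rule used no measured value. The rule gave 42 gene entries of 34653 on the autosomes, with 41 symbols, since H2-Q2 is annotated at 2 places. The genes spanned 3.54 Mb, and their gene regions ran from 2 kb before the start to 1 kb past the end. Each value below counts reads at the CpGs of such a region, of the 1-kb promoter around a gene start, or of a window of 500 nt.

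The animals were C57BL/6N (B6), C3H/HeN (C3) and the reciprocal F1 hybrids, B6C3F1 from B6 dams and C3 sires and C3B6F1 from C3 dams and B6 sires, with 3 males and 3 females of each. The B6 and C3 males were the sires and the B6 and C3 females the dams of such crosses, so that the parental females had borne and nursed litters whereas the F1 females were virgins. The animals came from 3 families per cross, each of a sire, a dam, a daughter and a son, so that the F1 animals are offspring of the parents they are compared with and the son and daughter of a family are siblings. The labels do not tie single animals to a family, and no fit had family as a term. All animals were killed at 20 weeks of age and no treatment is described. The strains are inbred, each animal is a sample of its own, and each liver is bulk tissue that holds hepatocytes, endothelial cells, Kupffer cells and other leukocytes, so that a change in the mix of cells and a change within a cell type cannot be told apart.

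Class I H2 proteins present peptides from inside the cell to cytotoxic T cells at the surface of nearly every nucleated cell, with H2-K1 and H2-D1 as the classical molecules of these genes and the H2-Q, H2-T and H2-M genes as nonclassical relatives. Class II proteins, made from the H2-A and H2-E genes, present peptides from outside the cell and are used chiefly by dendritic cells, macrophages and B cells. H2-DM loads peptides onto class II proteins and H2-O restrains H2-DM. The locus is among the most variable in the genome, and C57BL/6 mice carry its b haplotype and C3H mice its k haplotype. In C57BL/6 mice the gene of the class II E alpha chain is inactive, and the annotation of this B6-like genome lists it as the pseudogene H2-Ea-ps. Methylation of CpGs at a promoter is commonly low where a gene is in use and high where it is silent.

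The total of counts on autosomal CpGs was 365740739 to 619888157 per animal, or 19.4 to 32.8 reads per CpG, and 75.05% to 77.53% of counts were methylated. Mean promoter methylation of 7 hepatocyte genes lay between 11.9% and 30.1% in all strains and crosses, that of 6 leukocyte genes between 73.7% and 89.1%, that of 3 Kupffer cell genes between 58.2% and 89.7%, and that of 4 endothelial genes between 57.6% and 66.7% except Kdr at 2.03% to 2.62%. Of these marker lists, 0 of 7 hepatocyte, 1 of 6 leukocyte, 1 of 3 Kupffer cell and 0 of 4 endothelial gene regions differed between B6 and C3 by the gene region test used for the members, Cd3e by -5.41 and Cd68 by -5.74 percentage points (B6 minus C3), where 5.19% of all gene regions did. The median difference was 2.19 points over the hepatocyte, -1.53 over the leukocyte, -2.91 over the Kupffer cell and -1.19 over the endothelial list, and -0.902 over all gene regions. The part of cell composition in the results was not tested.

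Reads of both strains had been aligned to mm9, which is a C57BL/6 sequence. The authors had listed a CpG only where mm9, their local assembly of each strain and at least 75% of mapped bases of each strain have the dinucleotide. Of the 42 entries, 39 had at least 1 listed CpG. No CpG was listed for H2-Q6 (of 165 in mm9), H2-Q7 (of 145) or H2-M1 (of 26), and H2-Q8 had 7 of 143. Of the others, 38 gene regions had at least 5 CpGs and 30 counts in every animal, as had 37 promoters with at least 3 CpGs, and 215 windows with at least 5.

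Promoters of the H2 families ranged from nearly unmethylated to nearly fully methylated, where the median of all autosomal promoters was 46.9%. The lowest were those of H2-T23, of H2-Ke2, which encodes a prefoldin subunit (mean of all animals 0.519%), of H2-T22 and of H2-Bl (0.934%), followed by H2-K1, H2-M3 and the pseudogene H2-K2 (2.03%). The H2-K1 promoter had a mean of 0.945% ± 0.516 (SD, n = 6) in B6 and 2.11% ± 1.31 in C3, and in all animals it lay between 0.216% and 3.49%. H2-T23, which encodes Qa-1, a ligand of inhibitory receptors of natural killer cells, was at 0 to 1.25% in all 24 animals. H2-T22, a ligand of gamma delta T cells, was at 0.157% to 0.959%. H2-Q10, a class I protein that the liver secretes, was at 2.54% to 6.97%, with 4.67% ± 0.988 in B6 and 4.39% ± 1.07 in C3. H2-M3, which presents N-formylated peptides of bacteria, stood at 2.21% ± 0.479 in B6 and 0.676% ± 0.357 in C3, and at 0.509% ± 0.279 and 0.498% ± 0.318 over the 27 of its 28 CpGs that had at least 5 reads in every animal. H2-D1 was higher than H2-K1, at 19.9% ± 2.54 in B6 and 25.2% ± 6.77 in C3. Only 23 of its 41 promoter CpGs were listed, and 62 of 80 at H2-K1. C3 had 4.72 reads per CpG at the H2-D1 promoter and 3.56 at that of H2-K1, with ratios to B6 depth of 0.250 and 0.207. Both classical class I promoters, the 3 H2-Q promoters tested and the promoter of H2-M3 were thus below the median of all genes in every animal.

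Class II promoters were spread widely. H2-Ab1, the A beta chain, was at 13.03% ± 2.68 in B6, H2-Aa, the A alpha chain, at 39.4% ± 2.93, and H2-Eb1, the E beta chain, at 33.8% ± 3.70. H2-Ea-ps was at 75.7% to 88.9% in all animals, with 84.2% ± 2.78 in B6 and 83.6% ± 2.28 in C3, so that the strains overlapped. The start used is that of the mm9 pseudogene, and whether the E alpha gene of C3 starts there was not tested. Among the genes that act on class II proteins, H2-DMa was at 9.63% to 18.0% in all animals, H2-DMb1 at 37.6% to 65.2%, H2-Ob at 23.9% to 52.7% and H2-Oa at 44.1% to 68.2%. The H2-M family had the highest median, 82.1% over its 12 tested promoters, and within it H2-M3, H2-M5 (30.9% to 35.3% in the means of strains and crosses) and H2-M11 (52.4% to 57.7%) were lower. Their H2-M10 members, known for use in vomeronasal sensory neurons, had group means of 80.6% to 89.2%. The pseudogene H2-M6-ps was at 86.0% to 95.4%.

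**Figure D1:**
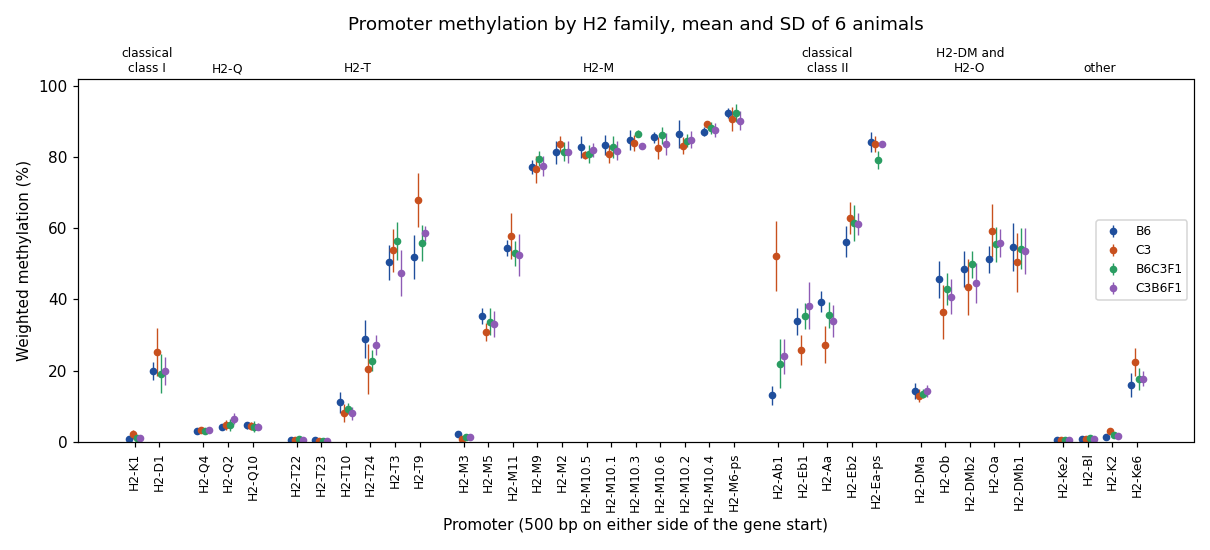
Mean promoter methylation (percent, vertical axis) of each tested H2 gene in B6, C3, B6C3F1 and C3B6F1, by family, with SD bars over 6 animals. H2-K1, H2-Q10, H2-T22 and H2-T23 sit below 5% and the H2-M10 promoters above 80%, H2-D1 lies at 19.1% to 25.2%, and H2-Ab1 has the widest gap, 13.03% in B6 and 52.3% in C3.

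Sequence variants listed for the strains were unevenly spread over the families. The paper describes them as variants from mm9, and they were counted without asking that B6 and C3 differ from each other. The median H2 gene region had 1.99 listed single nucleotide variants (SNVs) per kb and the other 286 genes within the same span 1.34. The tested gene regions of the autosomes had a median of 0.0943 and a mean of 1.10. H2-Ab1 had the most, 7.93 per kb, followed by H2-M3 (6.19), H2-Eb2 (6.09), H2-Ob (5.89), H2-Oa (5.60) and H2-Aa (5.40). The H2-T genes had 0 to 0.582 per kb and H2-Q10 had 0.134. H2-Q6, H2-Q8 and H2-M1, for which few or no CpGs were listed, had 0 SNVs listed, and H2-Q7 had 2. Whether SNVs went unlisted where sequence recurs in mm9 or C3 reads are few was not tested.

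Read depth over the same genes was lower in C3 than in B6 at some of the members. Summed counts per gene region were compared by edgeR with the autosomal total of each animal as library size, and calls needed an adjusted p under 0.05 together with a 1.5-fold change. Of 38 members, 8 were called lower in C3 and none higher, that is 21.1%, where over all gene regions 3.76% were called, 3.31% lower and 0.448% higher. With a limit of 1.2-fold 15 of 38 were called (11.9% of all gene regions). Of the 273 other tested genes of the span, 20 were called lower and 1 higher. Both classical class I genes, 2 of 5 classical class II genes, 2 of 5 H2-DM and H2-O genes, 1 of 4 H2-Q entries and the class I pseudogene H2-K2 were called, and none of the 6 H2-T or 12 H2-M genes.

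The largest loss was at H2-D1, where B6 had 16.1, 22.7 and 24.9 reads per CpG (lowest, median and highest of 6 animals) and C3 had 3.24, 4.77 and 6.15. The depth ratio of C3 to B6 was 0.242 there, a log2 difference of -2.04. H2-Ab1 followed, with 14.7, 23.1 and 27.0 reads per CpG in B6 and 3.99, 6.05 and 7.48 in C3 (ratio 0.301, log2 -1.73). H2-K1 had 10.8, 21.2 and 26.0 in B6 and 4.09, 5.90 and 6.71 in C3 (ratio 0.312, log2 -1.67). At these 3 genes no C3 animal reached the depth of any B6 animal. H2-Aa had a ratio of 0.379 and the second H2-Q2 entry, with only 9 of 116 CpGs listed, one of 0.381. H2-K2, H2-Ob and H2-DMb1 had ratios of 0.515, 0.546 and 0.550. H2-Q8 could not be tested and had a ratio of 0.113 over its 7 CpGs. The highest ratios, 1.034 at H2-T9, 1.033 at H2-M9 and 1.026 at H2-M2, were near the median of all gene regions, 1.02. Depth in the crosses was between the strains at the called members: B6C3F1 had 0.705 and C3B6F1 0.637 of the B6 depth at H2-K1, 0.673 and 0.588 at H2-D1, and 0.664 and 0.645 at H2-Ab1.

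Methylation of whole gene regions was compared between 6 B6 and 6 C3 animals by limma, on the log2 ratio of methylated to unmethylated counts in a fit of all 24 animals and all gene regions, and calls needed an adjusted p under 0.05 together with 5 or more percentage points between the strains. Of 38 members, 9 were called, or 23.7%, where 5.19% of all gene regions were called. Of these, 3 were higher in B6 (1.85% of all gene regions), namely H2-T24 by 7.75 points, H2-Aa by 7.57 and H2-K2 by 6.85. The other 6 were lower in B6 (3.34% of all), namely H2-D1, H2-K1, H2-T9, H2-Ab1, H2-Ke6 and H2-DMb1. The median absolute difference was 3.31 points over the members and 1.25 over all gene regions. With a limit of 2.5 points 16 of 38 members were called (14.4% of all gene regions).

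Classical class I genes showed the widest gene region differences of the members when all listed CpGs were weighted by reads. At H2-K1, gene region methylation was 17.2%, 19.1% and 25.8% in B6 (lowest, median and highest of 6 animals) and 42.1%, 49.4% and 53.8% in C3, so that the strains did not overlap. The difference was -28.1 points (adjusted p = 7.44e-08 in limma). At H2-D1 the values were 37.1%, 40.6% and 50% in B6 and 65.7%, 70.2% and 74.6% in C3, again without overlap, with a difference of -28.9 points (adjusted p = 1.75e-07 in limma). The promoters of both genes differed by -1.17 points (H2-K1) and -5.27 (H2-D1) over all listed CpGs, and neither passed the promoter threshold of 10 points.

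Depth and methylation varied together along these genes. Of the 129 CpGs of the H2-K1 region, 97 had a mean below 5 reads in C3, and these CpGs were 4.01% methylated in B6, where the other CpGs of the region were 52.2% methylated. In C3 those other CpGs were 59.1% methylated. At H2-D1 the 60 of 93 CpGs with a mean below 5 reads in C3 were 14.9% methylated in B6 and the others 71.4%, and the latter were 74.7% methylated in C3. Over CpGs with at least 5 reads in every animal, averaged with equal weight, H2-K1 was at 43.8% ± 1.14 in B6 and 46.2% ± 1.302 in C3 over 30 CpGs, a difference of -2.40 points. H2-D1 was at 75.9% ± 1.02 and 76.5% ± 1.49 over 21 CpGs, a difference of -0.622. On these CpGs neither gene was called. The same weighting at the promoters gave -1.68 points at H2-K1 (adjusted p = 0.0273 in limma, 13 CpGs) and -7.56 at H2-D1 (32.2% ± 3.59 and 39.8% ± 4.93, adjusted p = 0.0333 in limma, 5 CpGs), both under the limit of 10 points. Of all 38 members, 3 were called in this way (2.98% of all gene regions), namely H2-T24, H2-T9 and the second H2-Q2 entry, the last over 5 CpGs at 5.65 points (adjusted p = 0.0479 in limma).

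**Figure D2:**
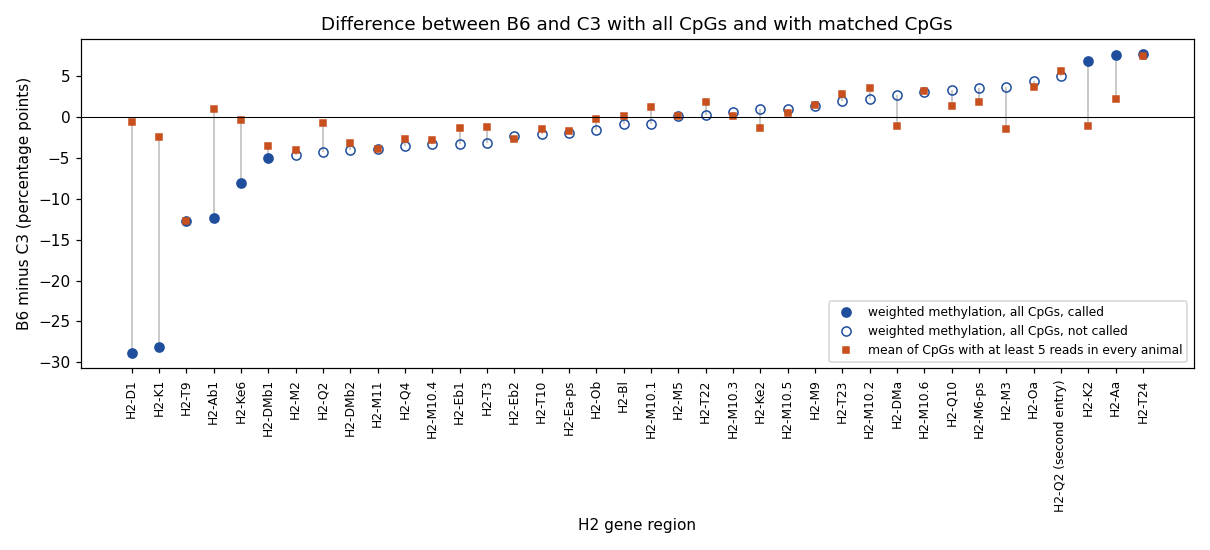
Difference in methylation, B6 minus C3 in percentage points (vertical axis), of the 38 tested H2 gene regions in the order of that difference, from all listed CpGs weighted by reads (circles, filled where called) and from CpGs with at least 5 reads in every animal weighted equally (squares). H2-D1 and H2-K1 lie at -28.9 and -28.1 points with all CpGs and at -0.622 and -2.40 with matched CpGs, while H2-T9 lies at -12.8 and -12.7.

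The 250 bases before the start of H2-K1 are shown because their CpGs, in capitals, were read in both strains and were almost free of methylation in each. The sequence is that of mm9 at chr17:34137279-34137528, on the minus strand, and holds no SNV.
H2-K1 promoter: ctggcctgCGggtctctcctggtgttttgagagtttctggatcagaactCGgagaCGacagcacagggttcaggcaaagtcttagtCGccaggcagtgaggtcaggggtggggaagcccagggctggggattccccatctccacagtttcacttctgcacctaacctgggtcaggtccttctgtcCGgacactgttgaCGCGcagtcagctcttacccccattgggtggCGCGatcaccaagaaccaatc
Of its 9 CpGs, 8 were listed, with 12.8 to 18.7 reads per C3 animal and 20.2 to 29.8 per B6 animal, and pooled levels were 0 to 1.27% in B6 and 0 to 3.06% in C3. The motif GGGGATTCC, the core of the class I enhancer that binds NF-kB, was found at base 126 and TTTCACTTC, a core of the interferon response element, at base 147, counted from the 5′ end. On either strand, within 250 bases before a gene start, GGGGATTCC was found at 5 of the 42 members (H2-K1, H2-K2, H2-Q6, H2-Q7 and H2-Q8) and at 0.205% of 34653 gene starts, and TTTCACTTC at 9 members and 0.442%.

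Of the classical class II genes, H2-Ab1 and H2-Aa were called, in opposite directions. At the H2-Ab1 gene region, methylation was 34.1%, 37.0% and 38.6% in B6 and 41.5%, 48.9% and 56.3% in C3, without overlap (difference -12.3 points, adjusted p = 4.57e-05 in limma). Over the 35 CpGs with at least 5 reads in every animal the difference turned to 0.937 points, with 62.02% ± 1.3004 in B6 and 61.1% ± 1.48 in C3. The 95 of 153 CpGs with a mean below 5 reads in C3 were 22.8% methylated in B6 and the others 55.5%, and the latter were 55.2% methylated in C3. At the H2-Aa gene region, methylation was 68.8%, 70.8% and 72.6% in B6 and 59.0%, 63.3% and 68.8% in C3, where the highest C3 animal and the lowest B6 animal met (7.57 points, adjusted p = 0.000335 in limma). Over 38 matched CpGs the difference was 2.18 points. Without the 29 of 79 CpGs with a mean below 5 reads in C3, pooled levels were 70.8% in B6 and 62.7% in C3. H2-Eb1, H2-Eb2 and H2-Ea-ps differed by -3.28, -2.31 and -1.97 points and were not called. At H2-Eb1, B6 ranged from 51.7% to 57.2% and C3 from 56.6% to 62.04%.

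Promoter calls needed an adjusted p under 0.05 and 10 or more points, and 3 of 37 tested H2 promoters passed, or 8.11%, where 2.39% of all promoters did. The 3 were those of H2-Ab1, H2-Aa and H2-T9. With a limit of 5 points 7 of 37 passed (6.42% of all promoters), with H2-Ke6, H2-Ob, H2-Eb1 and H2-T24 in addition. The H2-Ab1 promoter was at 9.43%, 13.02% and 17.1% in B6 and at 38.6%, 51.0% and 64.6% in C3, the widest promoter difference of the members at -39.2 points (adjusted p = 7.43e-11 in limma). Both crosses lay between, B6C3F1 at 15.9%, 18.9% and 34.1% and C3B6F1 at 18.6%, 24.1% and 29.9%. Only 10 of its 17 CpGs were listed, 12 SNVs lie within the 1 kb, and C3 had 0.281 of the B6 depth. Over the 3 CpGs with at least 5 reads in every animal the promoter was at 28.3% ± 1.68 in B6 and 51.2% ± 4.23 in C3 (difference -22.9 points, adjusted p = 3.34e-06 in limma), so that it was called there too. The H2-Aa promoter was at 34.5%, 40.5% and 42.1% in B6 and 18.0%, 27.9% and 32.8% in C3, without overlap (12.1 points, adjusted p = 0.000611 in limma). It fell below 10 points without C3 female 3 (9.92) and in the narrower 500 bases around the start (8.40). All 12 of its listed CpGs were matched, and with equal weight their difference was 6.06 points. On matched CpGs the H2-Oa promoter took its place, with a difference of -10.5 points over 9 CpGs, and 1.93% of all promoters were called.

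The bases before H2-Ab1 are shown because 1 of their CpGs differed between the strains beside another that did not. The sequence is that of mm9 at chr17:34399904-34400153, on the plus strand, with CpGs in capitals.
H2-Ab1 promoter: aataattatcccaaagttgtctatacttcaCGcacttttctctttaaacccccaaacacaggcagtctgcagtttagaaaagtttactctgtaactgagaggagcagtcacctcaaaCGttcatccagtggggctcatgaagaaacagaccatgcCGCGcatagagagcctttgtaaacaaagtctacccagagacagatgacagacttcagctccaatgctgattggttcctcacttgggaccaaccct
The CpG at base 31 was at 38.8% in B6 (29.7 reads per animal) and 77.2% in C3 (19 reads), with the crosses between at 52.2% (B6C3F1) and 50.7% (C3B6F1). The CpG at base 118 was at 0.518% in B6 and 1.37% in C3, with 32.2 and 12.2 reads per animal, and was below 1.5% in both crosses. The other 2 CpGs of the stretch were not listed. C3 differs from B6 at 4 bases, A76G, C126T, A206G and T222A. The motif CTGATTGG, the Y box that class II promoters share, begins at base 221 and holds the last of these SNVs. It was also found on the gene strand before H2-Aa, H2-Eb1 and H2-Eb2, with no SNV within it, and on either strand at 15 of 42 members and 3.14% of all gene starts. The rest of these 15 were H2-Q and H2-M genes, which held it on the other strand only. The motif was not found before H2-Ea-ps or before the H2-DM and H2-O genes.

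**Figure D3:**
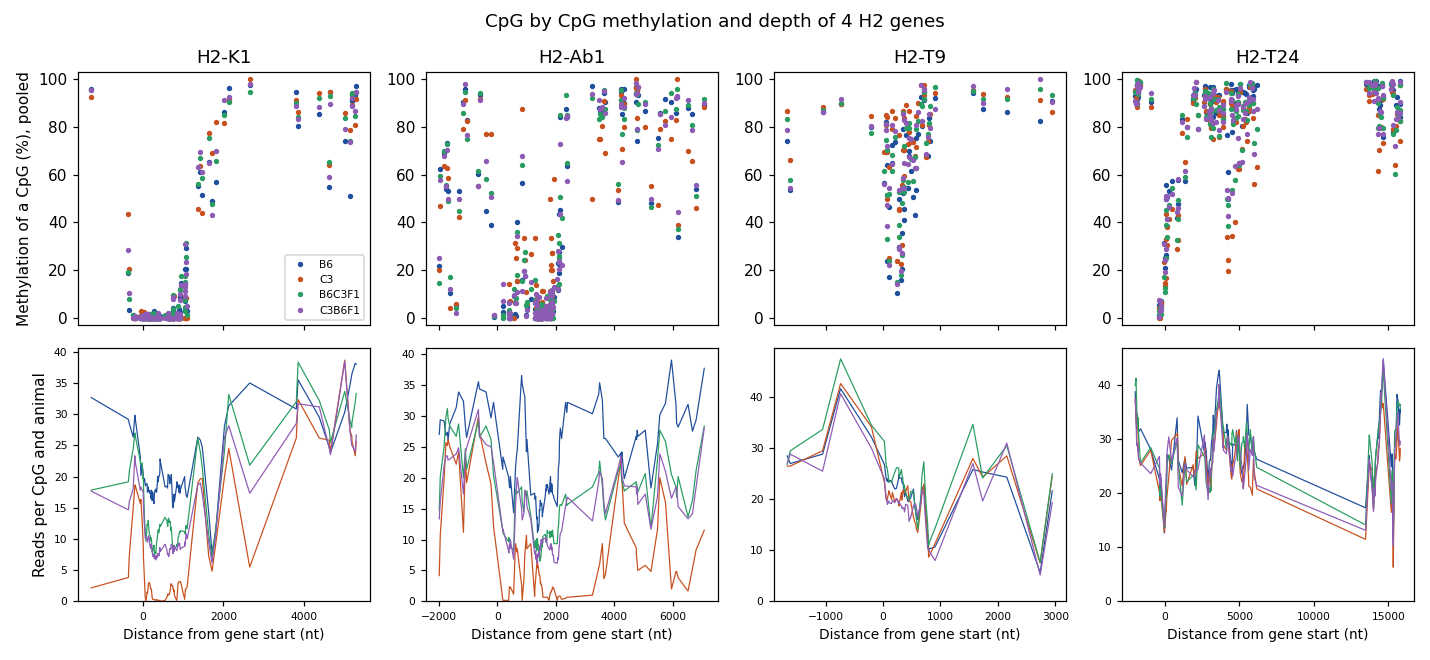
Pooled methylation of single CpGs (percent, upper row) and reads per CpG and animal (lower row) against the distance from the gene start in nt, for B6, C3, B6C3F1 and C3B6F1 at H2-K1, H2-Ab1, H2-T9 and H2-T24. At H2-K1 and H2-Ab1, 97 of 129 and 95 of 153 CpGs have a mean below 5 reads in C3, and these are 4.01% and 22.8% methylated in B6. At H2-T9 and H2-T24 the reads of the strains run together.

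Of the H2-DM and H2-O genes, only H2-DMb1, a beta chain of H2-DM, was called among gene regions. It was at 70.7%, 71.8% and 74.9% in B6 and 75.7%, 77.5% and 79.0% in C3 (-5.04 points, adjusted p = 0.000568 in limma), just past the limit of 5 points. Leaving out any of 6 animals brought it to between -4.92 and -4.61 points, and 38 matched CpGs gave -3.54. H2-DMb2, next to it, differed by -4.03 points, H2-Oa by 4.40, H2-DMa by 2.70 and H2-Ob by -1.57, all below the limit. At H2-Oa, which forms H2-O with H2-Ob, B6 was at 70.8% to 76.6% and C3 at 64.3% to 74.5%, and its small net value joined windows of opposite sign, as given below with the windows.

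Of the H2-Q genes, none was called for gene region methylation over all listed CpGs. H2-Q10 was at 21.6%, 23.2% and 24.8% in B6 and 16.2%, 20.0% and 22.8% in C3, with a depth ratio of 1.012, and its difference of 3.27 points had an adjusted p of 0.0815 in limma. H2-Q4 differed by -3.58 points and the first H2-Q2 entry by -4.21. The second H2-Q2 entry, with 9 listed CpGs, differed by 5.08 points (adjusted p = 0.0654 in limma), past the limit in size but not by the test, and it was called on 5 matched CpGs as given above. The share of 100-base stretches (with C read as T, as bisulfite treatment reads it) that occur again elsewhere in mm9 was 12.6% at H2-Q10, 17.2% at H2-Q4, and 39.5% to 45.9% at H2-Q6, H2-Q7 and H2-Q8. Its part in the missing CpGs was not tested.

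Among the H2-T genes, 2 differed with even depth. H2-T24, a class I gene of the T region, was at 81.2%, 84.1% and 85.7% in B6 and 74.4%, 75.9% and 77.7% in C3, without overlap (7.75 points, adjusted p = 8.68e-07 in limma). B6C3F1 was at 77.3% to 81.3% and C3B6F1 at 78.2% to 79.2%. The depth ratio was 0.986, the SNV density 0.112 per kb, and 116 matched CpGs gave 7.54 points. Only 120 of the 287 CpGs of the region were listed, and 39.7% of its 100-base stretches occur elsewhere in mm9. H2-T9 went the other way, with 55.3%, 64.8% and 67.1% in B6 and 68.3%, 75.7% and 82.2% in C3, without overlap (-12.8 points, adjusted p = 7.39e-07 in limma). Its promoter was at 42.7%, 55.3% and 56.8% in B6 and 56.4%, 68.2% and 77.0% in C3, where the ranges met by less than 1 point (-16.0 points, adjusted p = 1.68e-06 in limma), with a depth ratio of 1.008. On 47 matched CpGs of the gene region the difference was -12.7 points and on 29 of the promoter -15.7. Of the 100-base stretches of the H2-T9 region 38.9% occur elsewhere in mm9, and a gene on the other strand overlaps it. The part of copies in the difference was not tested. H2-T23, H2-T22, H2-T10 and H2-T3 differed by 1.93, 0.252, -2.12 and -3.17 points and were not called.

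None of the 12 tested H2-M genes was called. Their differences ran from -4.59 points at H2-M2 to 3.71 at H2-M3, which was at 30.3%, 31.9% and 34.1% in B6 and 25.0%, 28.5% and 31.3% in C3. Among the remaining members, H2-K2, a class I pseudogene, was at 20.3%, 23.4% and 30.0% in B6 and 16.2%, 17.1% and 17.5% in C3 (6.85 points, adjusted p = 0.000279 in limma). It turned to -1.03 points on 77 matched CpGs. H2-Ke6, which encodes a hydroxysteroid dehydrogenase and no antigen-presenting protein, was at 33.3%, 36.7% and 39.2% in B6 and 41.3%, 43.8% and 49.3% in C3 (-8.07 points, adjusted p = 0.00175 in limma), and differed by -0.346 on 114 matched CpGs. Without its 16 of 173 CpGs with a mean below 5 reads in C3, pooled levels were 38.8% in B6 and 44.8% in C3. H2-Ke2, which encodes a subunit of the chaperone prefoldin, differed by 1.01 points and H2-Bl by -0.847. In single windows of the H2-Bl region, up to 100% of the 100-base stretches occur elsewhere in mm9.

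**Figure D4:**
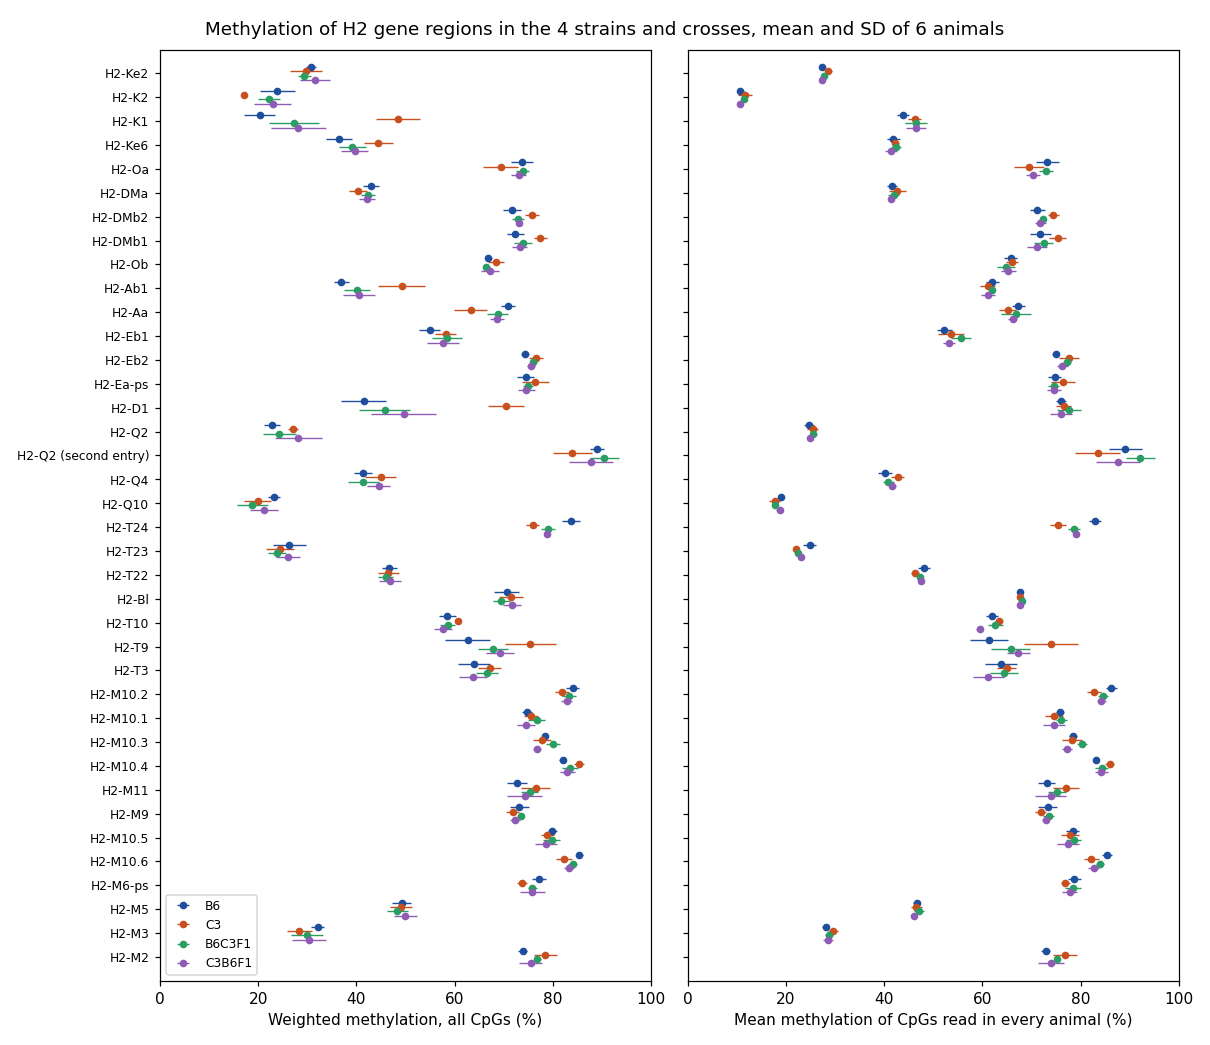
Mean methylation (percent, horizontal axis) of the 38 tested H2 gene regions in B6, C3, B6C3F1 and C3B6F1, with SD bars over 6 animals, from all listed CpGs weighted by reads (left) and from CpGs with at least 5 reads in every animal (right). H2-K1 is at 20.3% in B6 and 48.4% in C3 on the left and at 43.8% and 46.2% on the right, while H2-T9 and H2-T24 keep their gaps.

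Tiling by 500 nt, with 5 or more CpGs and 30 or more counts per animal asked of a window, gave 215 tested windows of 234 in the member regions, of 1456902 tested on the autosomes. At an adjusted p below 0.05 and at least 20 points, 1 window was called, where 0.494% of all windows were. It lies in an intron of H2-T24, at chr17:36153001-36153500, holds 7 CpGs and no SNV, had a depth ratio of 1.00 and has no stretch that occurs elsewhere. Methylation was 69.6%, 81.1% and 87.2% in B6 and 57.4%, 60.8% and 62.6% in C3 (20.05 points, adjusted p = 3.70e-07 in limma), without overlap. B6C3F1 was at 65.5%, 71.5% and 80.1% and C3B6F1 at 68.6%, 69.9% and 76.8%. The difference lay at the limit: it was 18.6 to 21.7 points when each animal was left out in turn, and below 20 without B6 male 1 or 3, B6 female 1 or 3, C3 male 3 or C3 female 3. Of the 2 adjacent windows, that at chr17:36152501-36153000 differed by 17.6 points, and that at chr17:36153501-36154000 by 4.33 points (adjusted p = 0.0903 in limma), which did not pass. Next to the former, the window at chr17:36152001-36152500 differed by 9.57 points and that at chr17:36151501-36152000 by 11.6.

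A stretch of 300 bases of the called window is shown because 3 of its 5 CpGs, in capitals, carried the difference. It is that of mm9 at chr17:36153042-36153341, on the minus strand on which H2-T24 lies.
H2-T24 intron: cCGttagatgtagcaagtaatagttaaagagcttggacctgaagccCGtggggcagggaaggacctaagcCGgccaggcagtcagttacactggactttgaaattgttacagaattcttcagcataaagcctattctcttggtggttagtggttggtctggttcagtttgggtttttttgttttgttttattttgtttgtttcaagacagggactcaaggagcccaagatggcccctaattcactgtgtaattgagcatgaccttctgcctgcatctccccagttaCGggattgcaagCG
The CpG at base 2 was at 76.6% in B6 and 34.1% in C3, that at base 47 at 50% and 19.7%, and that at base 71 at 61.3% and 24.3%, pooled over 6 animals with 29.3 to 32.8 reads per animal. The crosses were between at each of them, B6C3F1 at 50%, 38.5% and 47.5% and C3B6F1 at 53.6%, 42.6% and 50.3%. The last 2 CpGs were at 95.3% and 98.1% in B6 and 90% and 94.9% in C3.

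With a limit of 10 points, 16 of the 215 windows were called, 8 in each direction, where 2.39% of all windows were, and 12 of the 16 had a depth ratio between 0.67 and 1.5. They lay in 10 genes. H2-Oa held 3, of which the window at chr17:34229501-34230000 was lower in B6 (49.9% ± 2.82 in B6 and 68.8% ± 8.01 in C3, depth ratio 0.567). The window at chr17:34231001-34231500 of the same gene was higher in B6 (75.2% ± 4.73 and 59.8% ± 7.79, depth ratio 1.08). H2-T24 held 3, H2-Ke2 and H2-T9 held 2 each, and H2-T23, H2-DMa, H2-DMb2, H2-Ob, H2-Eb2 and H2-Q4 held 1 each. The H2-T23 window, at chr17:36168001-36168500, was at 64.5%, 71.0% and 72.3% in B6 and 50.3%, 52.7% and 61.5% in C3, although the gene region as a whole differed by 1.93 points. No window of H2-K1, H2-D1, H2-Ab1 or H2-Aa passed, but only 2, 3, 4 and 3 windows of these genes had enough reads in every animal.

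A beta-binomial Wald test of single CpGs, joined into differentially methylated regions (DMRs) of at least 5 CpGs and 20 points between 6 B6 and 6 C3 animals, gave 1 DMR in the member regions, of 1670 on the autosomes, and 2.6% of all gene regions held one. It lies in the coding part of an exon of H2-Ke2, at chr17:34075967-34076047, and is shown whole, on the minus strand of the gene, with CpGs in capitals.
H2-Ke2 DMR: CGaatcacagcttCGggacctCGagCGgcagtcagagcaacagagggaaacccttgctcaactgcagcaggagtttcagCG
Over its 5 CpGs, B6 was at 33.0%, 37.8% and 42.3% and C3 at 73.6%, 83.6% and 86.4%, without overlap. B6C3F1 was at 54.1%, 56.7% and 69.3% and C3B6F1 at 44.9%, 59.1% and 72.0%, both between the strains. Single CpGs differed in level but not in direction: that at base 1 was at 63.3% in B6 and 93.2% in C3, and that at base 80 at 13.8% and 53.8%. Reads per CpG and animal were 22.1 in B6 and 15.97 in C3. C3 differs from B6 at 2 bases of the region, T58C and T76C, and none of its stretches occurs elsewhere. The DMR was not called without B6 male 3, B6 female 1 or C3 male 2, nor where at least 10 reads were asked of every animal. The rewritten test called fewer DMRs on the autosomes than the paper reports from DSS for the same parents.

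The crosses were compared with each other and with the mean of the parents. Between B6C3F1 and C3B6F1, which carry the same haplotypes from opposite parents, 0 of 38 gene regions were called (0.00884% of all), 0 of 37 promoters (0.0158%) and 0 of 215 windows (0.000824%), with 4 gene regions, 5 promoters and 20 windows at an unadjusted p below 0.05 in limma. The widest gene region difference was -3.86 points, at the first H2-Q2 entry. Against the midparent, 0 gene regions (0.053% of all), 0 promoters (0.0284%) and 0 windows (0.0506%) passed, with 5, 4 and 20 at an unadjusted p below 0.05 in limma. For these unadjusted counts the share over all features was not computed.

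Of the 8 members called for lower C3 depth, the F1 mean of the gene region was below the midparent at 5 and above it at 3, and none of these differences passed the test. The widest of these gene region differences were -6.66 points at H2-K1 (adjusted p = 0.172 in limma) and -8.25 at H2-D1 (adjusted p = 0.127 in limma). Of the promoters of these members, that of H2-Ab1 was -9.65 points from the midparent (adjusted p = 0.281 in limma). Above the midparent in the gene region were H2-Aa (68.7% against 67.02%), H2-K2 (22.6% against 20.5%) and the second H2-Q2 entry (89.1% against 86.5%). B6 was higher than C3 at these 3 and lower than C3 at the 5 below the midparent. The F1 mean thus lay on the B6 side of the midparent at each of the 8. At H2-K1 the F1 mean was 27.7%, the midparent 34.4%, and the mean of the parents weighted by their depth at this gene 27.0%. At H2-D1 these were 47.7%, 55.9% and 47.1%, and at H2-Ab1 40.3%, 43.0% and 39.7%. At H2-T9 and H2-T24, with even depth, the F1 means of 68.5% and 78.8% were within 1 point of the midparents of 69.0% and 79.7%. The part of depth in these F1 values was not tested. At a limit of 5 points, 1 window differed from the midparent (0.115% of all windows), in an intron of H2-Eb1 just past its start at chr17:34443001-34443500. The parents were at 28.0% ± 4.53 (B6) and 18.4% ± 4.64 (C3) and the crosses at 29.6% ± 3.30 (B6C3F1) and 33.1% ± 6.69 (C3B6F1) (8.15 points above the midparent, adjusted p = 0.0390 in limma).

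Sexes were compared among parents, as sires against dams, and among the crosses. Of 38 gene regions, 1 was called between sires and dams (0.99% of all), and of 37 promoters 1 (0.331%), both those of H2-T9. No window was (0.104% of all). The H2-T9 gene region was at 55.3%, 58.9% and 65.1% in the 3 B6 sires and 64.7%, 65.0% and 67.1% in the 3 B6 dams, and at 68.3%, 71.4% and 74.6% in C3 sires and 76.8%, 79.3% and 82.2% in C3 dams. The difference was -6.91 points (adjusted p = 0.00206 in limma), and it was -5.79 to -8.25 points when each animal was left out in turn. Sons were also below daughters in both crosses, at 64.6%, 64.9% and 65.7% against 69.0%, 71.0% and 71.2% in B6C3F1 and at 65.4%, 67.3% and 68.0% against 70.2%, 72.0% and 72.8% in C3B6F1. Males and females did not overlap in C3 and in both crosses, and overlapped by less than 1 point in B6. Between sons and daughters the difference of -5.04 points had an adjusted p of 0.154 in limma and was not called. The strain difference did not pass a test of its own for sex (2.20 points between males and females, adjusted p = 0.475 in limma).

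The H2-T9 promoter was at 47.8% ± 6.55 in B6 sires and 56.0% ± 0.693 in B6 dams, and at 61.7% ± 4.75 and 74.0% ± 3.03 in C3 (-10.3 points between sires and dams, adjusted p = 0.00647 in limma). It fell to between -9.73 and -8.97 points, below the limit of 10, without B6 male 1 or 3, C3 male 2 or C3 female 2. At a limit of 10 points 1 window was called between sires and dams (0.572% of all windows), at chr17:36266001-36266500 over the start of the same gene, with -11.4 points. Of its stretches 8.35% occur elsewhere, against 49.25% in the next window of the gene.

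In the other comparisons no member passed. Between sons and daughters 0 gene regions (0.274% of all), 0 promoters (0.195%) and 0 windows (0.0511%) were called, and between dams and virgin daughters 0 gene regions (0.1%), 0 promoters (0.0725%) and 0 windows (0.0198%). The interaction of strain and sex gave 0 gene regions (0.00884%), 0 promoters (0.0063%) and 0 windows (0.00165%). Unadjusted p below 0.05 in limma were seen for 3, 4 and 24 of them between sons and daughters, 3, 3 and 16 between dams and daughters, and 4, 2 and 21 in the interaction. Here too the share over all features was not computed. At a limit of 10 points the H2-Eb1 window described above differed between dams and daughters (0.136% of all windows), by -10.5 points (adjusted p = 0.0306 in limma). The dams are inbred and the daughters are F1 hybrids, so that litter history and hybrid genotype cannot be told apart in this comparison.

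Genes of antigen processing without the H2 prefix were tested in the same fits, as a list of 24. Of these, 1 gene region was called (4.17%, where 5.19% of all gene regions were), that of Psmb8, a subunit of the immunoproteasome that lies among the H2 genes, at 48.1% ± 2.29 in B6 and 56.9% ± 2.82 in C3 (-8.72 points, adjusted p = 0.000258 in limma). Among promoters, 1 of 24 was called (2.39% of all promoters were), that of Tap2, a chain of the transporter that carries peptides to class I proteins, at 70.8% ± 1.70 in B6 and 54.5% ± 2.65 in C3 (16.3 points, adjusted p = 0.000175 in limma). Tap1, the other chain, had 0.410% and 0.351% at its promoter. B2m, the light chain of every class I protein, was at 0.441% and 0.192%. Ciita, the master regulator of class II genes, was at 78.9% and 82.8%, and Nlrc5, that of class I genes, at 83.4% and 89.1%. None of the list was called for depth, and its median SNV density was 1.63 per kb. Of the 273 other tested genes within the span of the H2 genes, 35 gene regions were called, or 12.8%, 11 higher and 24 lower in B6.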

How the data were processed

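Whole-genome bisulfite sequencing of liver was measured in 24 mice. The authors filtered reads by base quality, aligned them to mm9 with Bismark 0.7.8 and Bowtie 0.12.8 and removed duplicates with the Bismark tool. The submitters' notes also name CASAVA 1.8.2. The authors deposited methylated and unmethylated read counts per CpG and animal, both strands joined. These CpGs are present in mm9, in the authors' local assembly of each strain and in at least 75% of mapped bases of both strains. All 48 count columns were used and 0 were left out. Depth is given with the results, and intervals between animals cover the spread of animals only.

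Counts were summed over gene regions (2 kb before to 1 kb past a gene of GENCODE vM1), promoters (500 bases on either side of a start) and windows of 500 nt, with at least 30 counts in every animal. The log2 ratio of methylated to unmethylated counts, with 1 added to each, was tested with limma 3.58.1 (R 4.3.3) in 8 groups of strain or cross and sex, with trended variances and Benjamini-Hochberg adjustment over all features. F1 animals were compared with the midparent on percents. Depth was tested by edgeR 4.0.16 (quasi-likelihood), with DESeq2 1.42.0 as an alternative. For DMRs, the beta-binomial model of the DSS package was written anew with a Wald test for each CpG, without smoothing over neighbouring CpGs. The package itself was not run. Matched CpGs are those with at least 5 reads in every animal. Their percents were averaged with equal weight and tested by limma on percents. Such results thus differ from the others in CpG set, weighting and scale at once. The scripts were tested on simulated data.

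Members and lists were chosen with earlier results of these data known. The genes described by value were the best known member of each family, and up to 5 called members in each direction by size of the difference, with the lowest 5 and highest 3 depth ratios. Others were named after their values were seen. Alternatives were other thresholds, pseudocounts, region limits, CpGs near SNVs left out, a replicate block and each animal left out in turn, and those for sires against dams in gene regions and promoters were added after seeing the data. Sequences and motifs were read from the mm9 genome.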

Additional observations from a re-analysis of the deposited data

Results flagged for a closer look

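Among 136 sets of 6 animals (the gene regions and promoters of 17 named genes in each strain and cross), 7 held 1 animal far from the other 5, where chance gives about 1 in 20. The gene region of H2-DMa was at 43.8% in the first C3 female and at 38.9% to 40.4% in the other C3 animals. That of H2-Oa was at 76.4% in the first B6C3F1 female (others 72.5% to 73.9%) and at 76.0% in the first C3B6F1 female (others 72.1% to 72.7%). That of H2-K2 was at 16.2% in the third C3 male (others 17.04% to 17.5%). The H2-D1 promoter was at 15.1% in the first B6 female (others 20.1% to 22.6%). The H2-T23 promoter was at 0.690% in the first C3B6F1 male (others 0 to 0.228%), and the H2-M3 promoter at 2.72% in the third C3B6F1 male (others 1.01% to 1.46%). The causes were not tested.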

How the results depend on the processing

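Counts of called H2 features between B6 and C3 moved most with the minimum difference and with matched CpGs of equal weight. The latter setting changed both the CpGs and their weighting. With the minimum difference divided by 2, 16 windows (2.39% of all), 16 gene regions (14.4%) and 7 promoters (6.42%) were called, and 1 window each between sires and dams, between dams and F1 daughters and against the midparent. On matched CpGs 3 gene regions were called, and of the 9 called over all listed CpGs only H2-T24 and H2-T9 were among them. There H2-K2 turned to -1.03 points and H2-Ab1 to 0.937. In the narrower promoter 0 promoters were called between sires and dams. A minimum of 1.2-fold gave 15 regions of lower depth (11.9% of all regions in either direction). With 10 reads in every animal 0 DMRs were called, and 2 with counts summed over 250 bp on either side of a CpG. With 1 animal left out, called windows were 0 to 2, gene regions 8 to 11, promoters 2 to 4, depth 8 in each, DMRs 0 to 1, gene regions between sires and dams 1 in each and promoters 0 to 1, and windows of the other comparisons 0. The window count was 0 without B6 male 1 or 3, B6 female 1 or 3 or C3 male 3, and 2 without C3 male 1. The labels do not say that a replicate number marks a family. Correlations of the deviations of same-numbered animals of 1 sex were -0.0824 to 0.0828, which does not test family ties, and with the replicate number as a block 10 gene regions, 3 promoters, 1 window and 8 regions of lower depth were called. Only gene regions, promoters, windows and depths called between B6 and C3 or between sires and dams were recomputed 1 by 1 under each setting. Direction and call were kept in 134 cases, the call was lost in 9 and the direction was reversed in 2. With 1 animal left out both were kept in 535 cases and the call was lost in 17. Few reads in C3 limit H2-K1, H2-D1, H2-Ab1 and H2-Aa. The cause of these changes was not tested.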
